A study of Mus musculus with 16 samples.

Results

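Activin signalling was examined through 9 transcripts in the mouse dorsal hippocampus: follistatin (Fst), the activin subunit genes Inhba and Inhbb, the receptor genes Acvr1b, Acvr1c, Acvr2a and Acvr2b, and the signal transducer genes Smad2 and Smad3. They were taken as a named list from 55385 Ensembl gene identifiers, and all 9 were among the 16899 genes with enough counts to be tested. The list was selected on the CPM difference of Fst between Dnmt3a2 and control libraries at 5 days, so the values of the 9 genes at 5 days are a description with no test. The other 8 genes were added for their place in the pathway. The RNA came from mice injected in the dorsal hippocampus with a recombinant adeno-associated virus carrying GFP (the Control groups) or exogenous Dnmt3a2, a short isoform of the DNA methyltransferase Dnmt3a. All mice, controls included, were trained in contextual fear conditioning 3 weeks later, and tissue was taken 1 day or 5 days after training. The 4 groups, Control_1d, Dnmt3a2_1d, Control_5d and Dnmt3a2_5d, had 4 libraries each. The labels give neither strain, sex and age of the mice nor the promoter of the virus and the cells it reached, and they do not say whether each library is a separate animal. The p-values therefore measure the spread between these libraries, which may be technical in part.

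Activins are secreted dimers of inhibin beta subunits. They bind a type II receptor (the products of Acvr2a and Acvr2b), which recruits a type I receptor (those of Acvr1b and Acvr1c), and the complex phosphorylates SMAD2 and SMAD3. Follistatin binds activin and keeps it from its receptors, and in the hippocampus Inhba is known as a gene induced by neuronal activity.

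Because the delivered enzyme methylates cytosines, mostly at CpG, the bases upstream of the activin subunit genes are shown first. The RefSeq promoter table for build GRCm38.p6 held entries for 7 of the 9 genes, not for Fst and Smad2. The 250 bases before the annotated start of each subunit gene are printed 5′ to 3′ with every CpG in capitals. They are chr13:16011601-16011850 on the plus strand for Inhba and chr1:119422249-119422498 on the minus strand for Inhbb.
Inhba: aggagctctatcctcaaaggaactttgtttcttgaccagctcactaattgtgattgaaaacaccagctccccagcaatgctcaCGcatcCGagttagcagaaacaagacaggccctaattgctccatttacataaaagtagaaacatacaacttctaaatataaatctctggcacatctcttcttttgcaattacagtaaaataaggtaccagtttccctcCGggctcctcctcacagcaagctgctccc
Inhbb: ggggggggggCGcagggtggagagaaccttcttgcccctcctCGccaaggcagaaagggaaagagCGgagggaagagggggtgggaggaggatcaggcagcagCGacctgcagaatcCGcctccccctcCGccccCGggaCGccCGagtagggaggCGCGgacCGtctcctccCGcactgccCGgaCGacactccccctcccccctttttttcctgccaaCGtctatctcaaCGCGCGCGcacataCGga
Inhba had 3 CpG in this window and Inhbb had 21, against a median of 6 over 32841 promoter windows of the same length. As many or fewer CpG were found in 37.8% of all windows for Inhba and in 85.2% for Inhbb. The windows of Smad3, Acvr2b, Acvr1b and Acvr2a had 22, 24, 42 and 49 CpG. Acvr1c has 2 listed starts, with 32 and 2 CpG. Inhba was thus the CpG-poor promoter among the genes with a single listed start. The motif CAGAC, the short SMAD-binding element, searched on both strands, was in neither printed window, and 42.2% of all windows held it. The cyclic AMP response element TGACGTCA was also in neither, and 1.55% of all windows held it. Methylation was not measured in these libraries.

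The libraries held 28.6 to 30.0 M estimated counts. Levels are given in CPM, estimated counts scaled to library size with TMM factors, as mean ± SD over 4 libraries. Dnmt3a, the delivered gene, lay between 32.7 and 37.7 CPM in the 8 control libraries and between 623 and 1249 CPM in the 8 Dnmt3a2 libraries. All 15 listed hippocampal neuron markers were detected, summing to 12683 to 13230 CPM in Control_1d and 11976 to 13166 CPM in Dnmt3a2_1d. At 5 days this sum was 12564 to 13648 CPM in Control_5d and 11647 to 12105 CPM in Dnmt3a2_5d, without overlap. Of the 15 markers, 8 had a log2 difference above 0 at 5 days (list median 0.013), so the lower sum was not shared by all. At an edgeR unadjusted p under 0.05, 1 was higher and 5 were lower, against 3.97% and 4.04% of all genes. After adjustment edgeR called 1 of the 15 markers at 5 days, which was lower, against 0.320% of all genes. Replicate 1 of Dnmt3a2_1d and replicate 1 of Dnmt3a2_5d stood apart in 12 choroid plexus markers, which summed to 1186 and 1841 CPM there and to 131 to 373 CPM in the other 14 libraries. These libraries and replicate 1 of Control_1d also had the highest sums of 20 interferon response genes, 153 to 222 CPM against 82.4 to 119 CPM elsewhere. With Dnmt3a2, 18 of these 20 genes had a log2 difference above 0 at 1 day (median 0.375) and 17 at 5 days (median 0.285). Outside replicate 1, their sums at 1 day were 82.4 to 99.2 CPM in control and 106 to 117 CPM in Dnmt3a2 libraries. At 5 days they were 95.4 to 119 CPM and 87.7 to 105 CPM. At an edgeR unadjusted p under 0.05, 1 was higher at 1 day, against 3.88% of all genes. The part of this list in the differences of the 9 genes was not tested. In bulk tissue, fewer cells of a type and less RNA per cell cannot be told apart.

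Among the 9 genes, follistatin was the one whose levels separated the virus groups at both days. Fst (ENSMUSG00000021765, chromosome 13, 114452290 to 114458951, minus strand) was at 1.98, 2.76, 2.30 and 1.49 CPM in Control_1d and at 3.54, 4.41, 3.72 and 4.02 CPM in Dnmt3a2_1d. Every Dnmt3a2 library of 1 day lay above every control library. The means were 2.13 ± 0.536 and 3.92 ± 0.380 CPM (SD, n = 4 each), a ratio of 1.84. In the fit across all genes the log2 change at 1 day was 0.88 (SE 0.20), which missed the threshold over all genes (edgeR adjusted p = 0.152, unadjusted p = 0.000266). The mean difference of 1.79 CPM had p = 0.0286 (exact permutation, two-sided), the smallest that 70 regroupings of 4 against 4 allow. Any gene without overlap gets this p, so it restates the separation, which 3.43% of all genes had at 1 day in either direction. The call at 1 day depended on the tool: the adjusted p was 0.0137 in DESeq2, 0.0275 in edgeR without a filter on low counts, and 0.0686 to 0.320 over the other 26 alternatives.

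At 5 days Fst was at 1.37, 2.29, 1.41 and 1.84 CPM in Control_5d and at 3.70, 4.80, 4.10 and 5.99 CPM in Dnmt3a2_5d. The groups again did not overlap, and replicate 4 of Dnmt3a2_5d was the highest of all 16 libraries. The means were 1.73 ± 0.432 and 4.65 ± 1.00 CPM, a ratio of 2.69, and the log2 difference was 1.43 (SE 0.20). The contrast at 5 days shares no library with the contrast at 1 day. From 1 day to 5 days the log2 difference of Fst was -0.30 (SE 0.21) in controls and 0.24 (SE 0.19) in Dnmt3a2, and the groups overlapped in both. The log2 effect of Dnmt3a2 was larger at 5 days than at 1 day by 0.55 (SE 0.28), a value given without a test because the 5-day libraries brought the gene in. Fst rested on 40 to 178 estimated counts per library, a low count. The neuronal marker sum was lower in Dnmt3a2_5d, where Fst was higher, and its part in the Fst difference was not tested.

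Fst was set beside the delivered gene within the Dnmt3a2 groups. At 1 day replicate 1 had the lowest Dnmt3a (623 CPM) and the lowest Fst (3.54 CPM), while replicate 3 had the highest Dnmt3a (1153 CPM) and an Fst of 3.72 CPM. At 5 days replicate 1 was the lowest in both (1015 and 3.70 CPM) and replicate 3 came next in both (1136 and 4.10 CPM), while replicates 2 and 4 had similar Dnmt3a (1249 and 1244 CPM) and an Fst of 4.80 and 5.99 CPM. The choroid-rich replicate 1 held the lowest Fst of its group at both days. Without these 2 libraries the log2 difference of Fst was 0.92 at 1 day (edgeR adjusted p = 0.0983) and 1.52 at 5 days, and without the 3 interferon-rich libraries it was 0.89 (edgeR adjusted p = 0.228) and 1.52. The 12 meningeal and perivascular fibroblast markers, all detected, summed to 76.9 to 108 CPM in Control_1d, 86.3 to 149 CPM in Dnmt3a2_1d, 81.3 to 102 CPM in Control_5d and 81.2 to 179 CPM in Dnmt3a2_5d. The highest of these sums was again in replicate 1 of each Dnmt3a2 group, where Fst was lowest. At 1 day the median astrocyte and oligodendrocyte sums were higher in Dnmt3a2 than in control libraries, with overlapping ranges. Within Dnmt3a2_1d, replicate 1 had the highest sum of both lists and the lowest Fst. The 8 astrocyte markers summed to 3062 to 3445 CPM in Control_1d and 3343 to 3696 CPM in Dnmt3a2_1d, with 3 of 8 higher at an unadjusted p under 0.05, against 3.88% of all genes. The 10 oligodendrocyte lineage markers summed to 3708 to 5302 CPM (median 4063) and 4118 to 6051 CPM (median 4832), with 0 of 10 at that p. At 5 days the astrocyte sums were 2992 to 3401 and 3017 to 3396 CPM, and the oligodendrocyte sums 3252 to 4472 and 3421 to 4127 CPM. The sums of interneuron, microglial and vascular markers overlapped between virus groups at both days. The part of these cell types in the Fst difference was not tested.

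**Figure D1:**
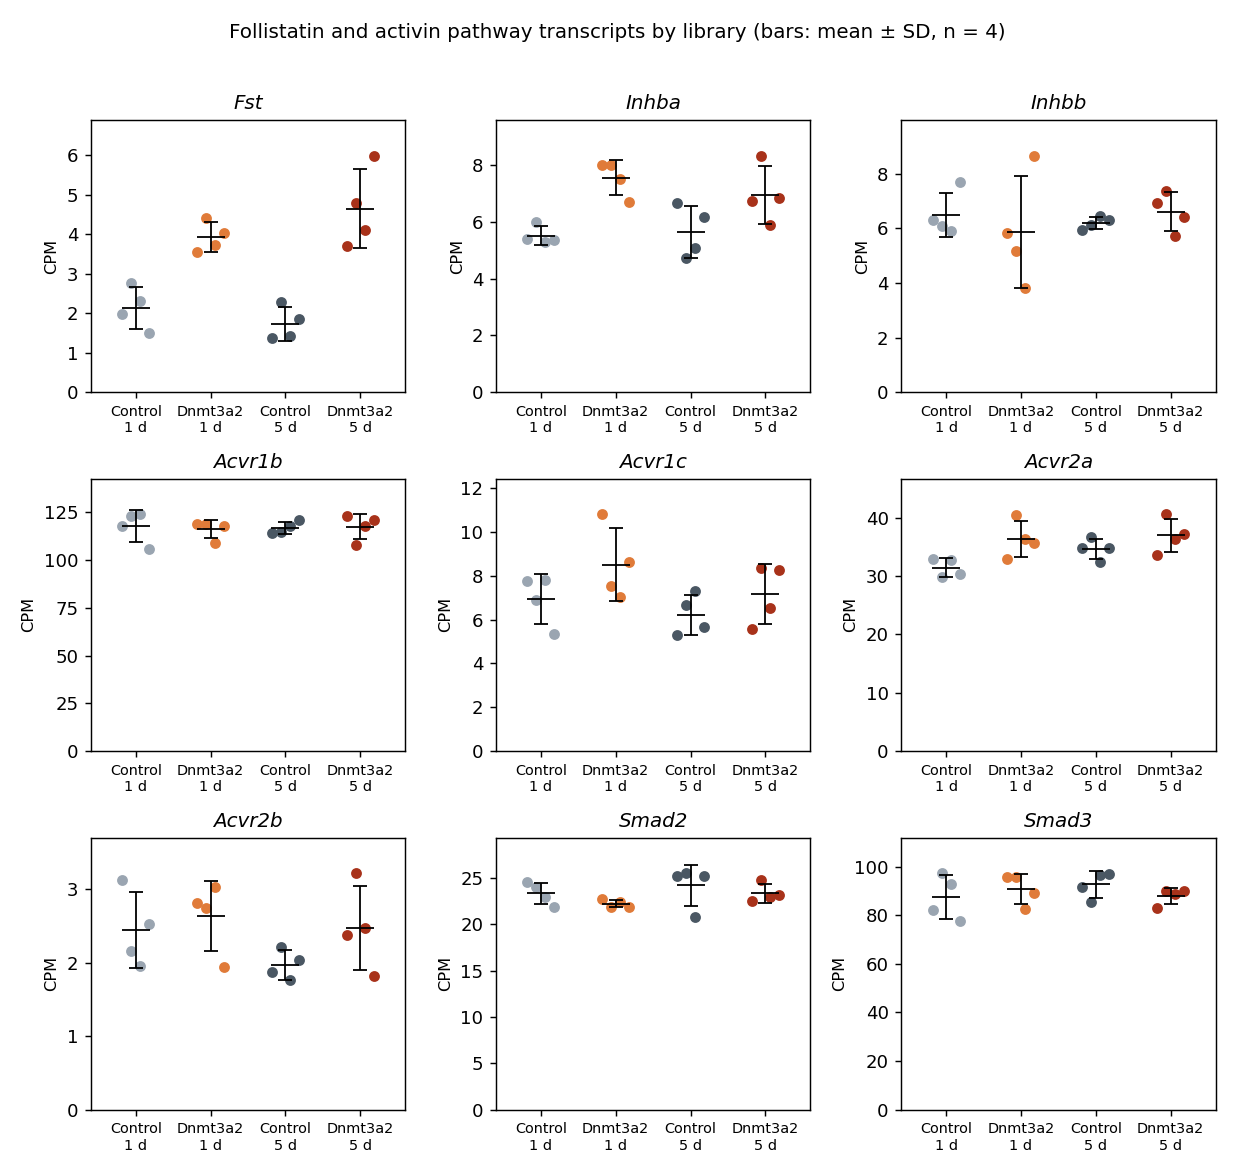
CPM of each of the 9 transcripts in the 16 libraries by group, with each point 1 library and bars the mean ± SD of 4. Fst lies between 3.54 and 5.99 CPM in all Dnmt3a2 libraries and between 1.37 and 2.76 CPM in all controls, and Inhba separates at 1 day but not at 5 days.

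Of the activin subunits, Inhba, which encodes the beta A subunit of activin A, was higher in every Dnmt3a2 library than in any control at 1 day, and Inhbb, which encodes beta B, was not. Inhba (ENSMUSG00000041324, chromosome 13, 16011851 to 16031621, plus strand) was at 5.40, 6.0, 5.29 and 5.34 CPM in Control_1d and at 8.0, 7.98, 7.51 and 6.69 CPM in Dnmt3a2_1d. The means were 5.51 ± 0.330 and 7.55 ± 0.615 CPM, a log2 difference of 0.45 (SE 0.12) that missed the threshold (edgeR adjusted p = 0.264, unadjusted p = 0.00151, adjusted p from 0.0972 to 0.547 over 28 alternatives). At 5 days Inhba was at 6.65, 4.71, 5.07 and 6.17 CPM in Control_5d and at 6.74, 8.33, 5.87 and 6.83 CPM in Dnmt3a2_5d. Here the groups overlapped through replicate 3 of Dnmt3a2_5d and replicates 1 and 4 of Control_5d. The log2 difference at 5 days was 0.30 (SE 0.12), and the difference between the days was -0.16 (SE 0.17). Without the 2 choroid-rich libraries the Dnmt3a2 difference of Inhba was 0.42 at 1 day and 0.31 at 5 days.

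Inhba is an activity-regulated gene, so the 20 immediate early genes listed were set beside it. They summed to 972 to 1204 CPM in Control_1d and to 999 to 1449 CPM in Dnmt3a2_1d, with 10 of 20 above 0 and a median log2 difference of -0.017. At 5 days 10 of 20 were again above 0, and the median was -0.001. At an edgeR unadjusted p under 0.05, 2 were higher and 0 lower at 1 day, against 3.88% and 3.30% of all genes. By the same rule 1 was higher and 3 were lower at 5 days, against 3.97% and 4.04%. The part of neuronal activity in the Inhba difference was not tested. The pseudogene transcript B230303A05Rik spans the start of Inhba on the opposite strand without sharing an exon. It was at 9.14 ± 1.10 CPM in Control_1d and 8.60 ± 0.790 CPM in Dnmt3a2_1d, and the groups overlapped.

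Inhbb (ENSMUSG00000037035, chromosome 1, 119415465 to 119422248, minus strand) was at 6.29, 6.10, 5.91 and 7.70 CPM in Control_1d and at 5.84, 5.17, 3.82 and 8.67 CPM in Dnmt3a2_1d. The Dnmt3a2 libraries of 1 day thus held both the lowest and the highest Inhbb level of the 16. At 5 days Inhbb was at 6.20 ± 0.218 CPM in Control_5d and 6.61 ± 0.716 CPM in Dnmt3a2_5d, and the groups overlapped. The log2 differences were -0.15 (SE 0.17) at 1 day and 0.09 (SE 0.17) at 5 days.

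**Figure D2:**
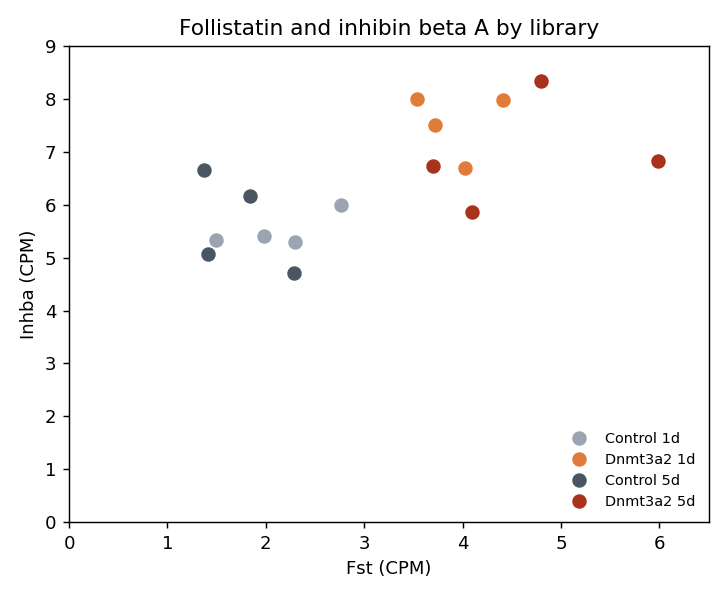
Fst against Inhba in CPM, each point 1 of the 16 libraries, coloured by group. The Dnmt3a2 libraries lie to the right of all controls, from 3.54 CPM of Fst, whereas on the Inhba axis those of 5 days reach down to 5.87 CPM, among the controls.

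Within groups, the libraries high in Fst were high in Inhba in some cases and not in others. In Control_1d replicate 2 was the highest in both (2.76 and 6.0 CPM), and in Dnmt3a2_1d replicate 2 had the highest Fst (4.41 CPM) and 7.98 CPM of Inhba, next to the highest. In Control_5d the library highest in Fst, replicate 2 (2.29 CPM), was the lowest in Inhba (4.71 CPM). Replicate 4 of Dnmt3a2_5d, with the highest Fst, had 6.83 CPM of Inhba, and replicate 2, with the highest Inhba (8.33 CPM), had 4.80 CPM of Fst. Over all 16 libraries Pearson's r of log2 CPM between Fst and Inhba was 0.655, and of the deviations from the group means it was -0.011. These are descriptions of libraries that share the virus groups, and a weak r at such low counts is no finding.

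The type II receptor gene Acvr2a was the third gene without overlap at 1 day, by a narrow margin. Acvr2a (ENSMUSG00000052155, chromosome 2, 48814109 to 48903269, plus strand) was at 32.9, 29.8, 32.8 and 30.4 CPM in Control_1d and at 33.0, 40.4, 36.4 and 35.7 CPM in Dnmt3a2_1d. Replicate 1 of Dnmt3a2_1d lay just above the highest control. The log2 difference at 1 day was 0.21 (SE 0.07, edgeR adjusted p = 0.420, unadjusted p = 0.00708). At 5 days the levels were 34.7 ± 1.76 and 37.0 ± 2.81 CPM with overlapping groups, a log2 difference of 0.09 (SE 0.07). The 3′ end of Acvr2a overlaps exons of Orc4 on the opposite strand, and no source states whether counting used strand, so part of its counts is uncertain. Orc4 was at 23.1 ± 0.670 CPM in Control_1d and 21.9 ± 2.63 CPM in Dnmt3a2_1d, overlapping.

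The other type II receptor gene, Acvr2b, was among the lowest of the 9. It lay between 1.96 and 3.13 CPM in Control_1d, between 1.94 and 3.03 CPM in Dnmt3a2_1d, between 1.76 and 2.22 CPM in Control_5d and between 1.82 and 3.22 CPM in Dnmt3a2_5d. The ranges overlapped at both days, with log2 differences of 0.11 (SE 0.19) and 0.32 (SE 0.20).

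The type I receptor genes differed in level and in spread. Acvr1b, which encodes ALK4, the main type I receptor for activin, was at 118 ± 8.13, 116 ± 4.55, 117 ± 3.30 and 117 ± 6.60 CPM in Control_1d, Dnmt3a2_1d, Control_5d and Dnmt3a2_5d. Its log2 differences with Dnmt3a2 were -0.02 and 0.00 (SE 0.06 each), the smallest of the 9 genes at both days. Acvr1c, which encodes ALK7, a type I receptor for activin B and nodal, was at 6.94 ± 1.14 and 8.49 ± 1.65 CPM at 1 day and at 6.21 ± 0.918 and 7.16 ± 1.37 CPM at 5 days. The highest Acvr1c level, 10.8 CPM, was in the choroid-rich replicate 1 of Dnmt3a2_1d. Its groups overlapped at both days, with log2 differences of 0.29 (SE 0.16) and 0.21 (SE 0.16), and the part of the choroid plexus transcripts in this was not tested.

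The SMAD genes lay close to their control levels. Smad2 was at 23.3 ± 1.20 and 22.2 ± 0.399 CPM at 1 day and at 24.2 ± 2.26 and 23.3 ± 1.03 CPM at 5 days in control and Dnmt3a2 libraries. Smad3 was at 87.4 ± 9.15 and 90.8 ± 6.22 CPM at 1 day and at 92.7 ± 5.39 and 87.9 ± 3.43 CPM at 5 days. For both genes the groups overlapped at each day, and log2 differences lay between -0.08 and 0.05 (SE 0.07 each).

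**Figure D3:**
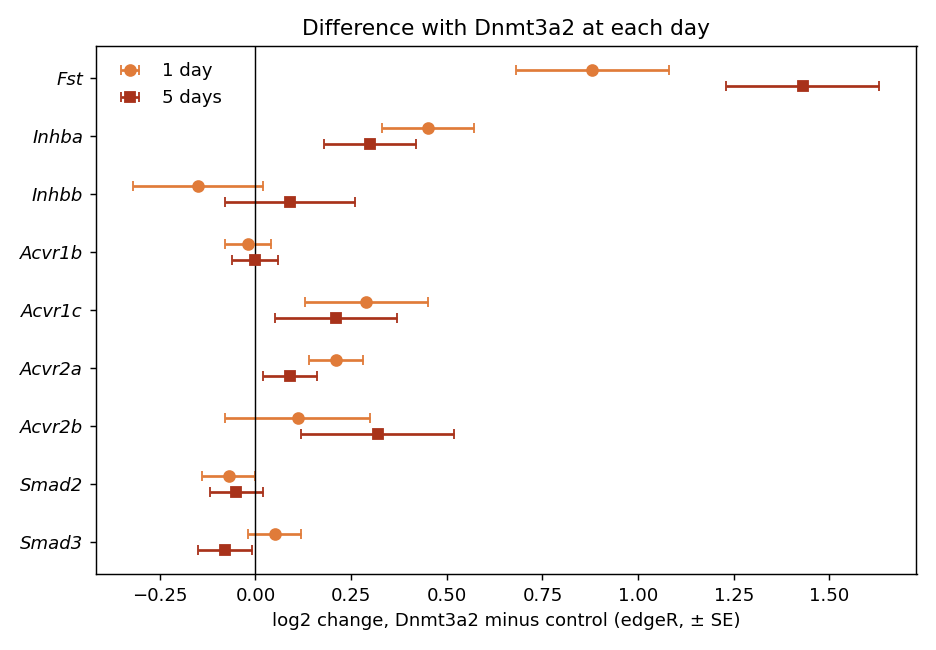
Log2 difference between Dnmt3a2 and control libraries for each transcript, ± SE from the fit across all genes, at 1 day (circles) and 5 days (squares). Fst is farthest from 0 at both days (0.88 and 1.43), and Acvr1b, Smad2 and Smad3 stay within 0.1 of it.

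Counted over the list, edgeR called 0 of the 9 genes at 1 day, where it called 15 of 16899 genes, 0.0888% of all. At an unadjusted p under 0.05 it gave 3 of 9, Fst, Inhba and Acvr2a, against 7.17% of all genes. DESeq2 called Fst alone at 1 day, 1 of 9 against 0.349% of all, and limma-voom called 0 of 9 against 0.0888%. The same 3 genes were without overlap at 1 day, all of them higher, against 1.67% of all genes. Fst brought the list in, and the genes were chosen with earlier results of these data known. For this reason nothing is read from the counts at 1 day. At 5 days edgeR called 1 of 9, Fst, against 0.320% of all, a count fixed by how the list was brought in. By the other rules at 5 days Fst was again the gene counted, in 1 of 9 by DESeq2 (0.846% of all) and limma-voom (0.343%), and without overlap, higher in 1 of 9 (3.00%) and lower in 0 (3.29%). Fst and Inhba, 2 of 9, had an unadjusted p under 0.05 there, against 8.01% of all genes, and nothing is read from it. The median log2 difference over the 9 genes was 0.106 at 1 day and 0.094 at 5 days, against 0.003 and 0.008 over all genes tested.

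The comparisons between days use the 5-day libraries on which the list was selected, so their counts are set beside the background and nothing is read from them. Between days, edgeR called 0 of 9 genes in controls and 0 of 9 in Dnmt3a2 libraries, with 0.0% of all genes called in each. No gene of the 9 had an unadjusted p under 0.05 in either comparison, against 3.54% and 10.8% of all genes, and DESeq2 called 0 of 9 in each, against 0.0% and 0.260%, as did limma-voom, against 0.0% in both. The groups of all 9 genes overlapped, where in controls 2.40% of all genes did not (1.13% higher, 1.27% lower) and in Dnmt3a2 5.17% did not (2.68% higher, 2.49% lower). For the difference of the Dnmt3a2 effect between days, edgeR, DESeq2 and limma-voom also called 0 of 9, against 0.0%, 0.00592% and 0.0% of all genes, and 0 of 9 had an unadjusted p under 0.05, against 2.13%.

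Levels can be compared between the genes after division by exon length, here CPM per kb of merged exons over the 16 libraries. The order was Acvr1b (26.5 ± 1.21), Smad3 (16.2 ± 1.11), Acvr2a (6.13 ± 0.541), Smad2 (2.65 ± 0.163), Inhbb (1.48 ± 0.254), Inhba (1.00 ± 0.176), Acvr1c (0.775 ± 0.155), Fst (0.677 ± 0.300) and Acvr2b (0.606 ± 0.124). The library ranges of the first 4 overlapped no neighbour in this order, and from Inhbb downwards each gene overlapped the next. Receptors and SMADs were thus measured at higher levels per length than either ligand subunit or the antagonist, with Acvr1c and Acvr2b as the exceptions. By group, the mean of Fst was 0.465 ± 0.117 and 0.376 ± 0.0941 CPM per kb in controls of 1 and 5 days, below Acvr2b (0.622 ± 0.131 and 0.503 ± 0.0518). In the Dnmt3a2 groups it was 0.855 ± 0.0829 and 1.01 ± 0.218, above Acvr2b (0.670 ± 0.121 and 0.629 ± 0.147).

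**Figure D4:**
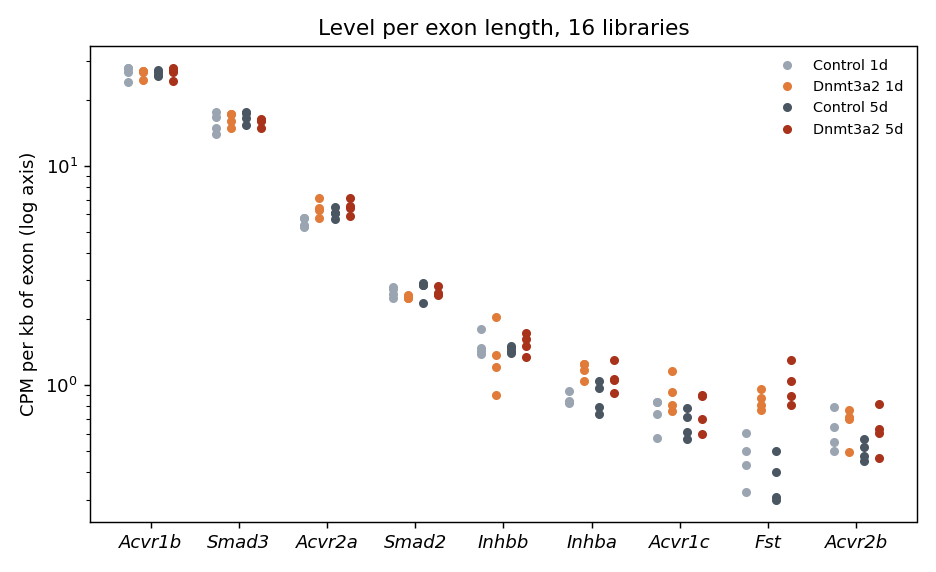
CPM per kb of exon on a log axis for the 9 genes in order of their mean, each point 1 library, coloured by group. Acvr1b (26.5 on average) and Acvr2b (0.606) mark the ends, and Fst is the gene whose points split by virus group.

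Among 13069 genes of at least 1 CPM with an established symbol, the 5 whose log2 CPM ran most like that of Fst over the 16 libraries were Pip4k2c, Dnmt3a, Htr2a, Sirpa and Kdm2b. Pearson's r was 0.908, 0.902, 0.885, 0.872 and 0.867. All libraries share the virus contrast, which alone can give such values, so r of the deviations from the group means is set beside it: 0.696, 0.226, 0.488, 0.542 and 0.630. Pip4k2c, a phosphatidylinositol phosphate kinase gene, was at 140 and 152 CPM at 1 day and at 140 and 164 CPM at 5 days in control and Dnmt3a2 libraries. Htr2a, the serotonin 2A receptor gene, was at 10.6 and 17.6 CPM and at 11.4 and 20.4 CPM. Of the other 8 pathway genes, Inhba and Acvr2a (r = 0.610) were nearest to Fst. These r values are descriptions over libraries that differ by the contrast that brought Fst in.

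The rest of the pathway was followed in 74 further genes by role, of which 66 were tested. Over all genes tested, edgeR called 0 of 66 at 1 day and 0 of 66 at 5 days. DESeq2 called 0 at 1 day, against 0.349% of all genes, and 2 at 5 days, against 0.846%, and limma-voom called 0 at both, against 0.0888% and 0.343%. At an unadjusted p under 0.05, 3 of 66 were higher and 2 lower at 1 day, against 3.88% and 3.30% of all genes, and 3 higher and 7 lower at 5 days, against 3.97% and 4.04%. Between days edgeR called 0 of 66 in controls and in Dnmt3a2, where DESeq2 and limma-voom called 0 as well, and 2 of 66 had an unadjusted p under 0.05 in each, against 3.54% and 10.8% of all genes. Without overlap between virus groups were 3 of 66 higher and 0 lower at 1 day, against 1.67% and 1.76% of all genes, and 2 higher and 6 lower at 5 days, against 3.00% and 3.29%.

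Of 26 other ligands and secreted regulators, 20 were tested, 12 were above 0 at 1 day (median log2 0.054) and 14 at 5 days (0.060). At an edgeR unadjusted p under 0.05, 1 was higher and 4 were lower at 5 days, against 3.97% and 4.04% of all genes. Inha, the alpha subunit that pairs with a beta subunit to form inhibin, was at 10.5 ± 1.27 and 11.1 ± 0.991 CPM at 1 day and at 9.64 ± 0.605 and 9.79 ± 1.20 CPM at 5 days. Of the 4 follistatin-related genes measured, none was called at either day by edgeR. Fstl3, which encodes the closest relative of follistatin as an activin binder, was at 1.00 ± 0.194 and 1.09 ± 0.294 CPM at 1 day and 1.05 ± 0.263 and 1.10 ± 0.203 CPM at 5 days. Prss57, on the opposite strand, shares exon sequence with Fstl3 at a similar level (0.750 CPM), so the counts of Fstl3 are uncertain. The log2 differences at 1 and 5 days were -0.15 and -0.13 (SE 0.08) for Fstl1, -0.05 and -0.23 (SE 0.10) for Fstl4 and -0.05 and 0.12 (SE 0.10) for Fstl5. Gdf11, an activin-like ligand that follistatin also binds, was at 21.6 ± 1.01 CPM in Control_5d and 24.7 ± 1.40 CPM in Dnmt3a2_5d without overlap, a log2 difference of 0.20 (SE 0.08, edgeR adjusted p = 0.447). At 1 day its groups overlapped (0.07, SE 0.08). Tgfb2, a TGF-beta ligand that also signals through SMAD2 and SMAD3, differed by -0.03 and -0.01 (SE 0.07).

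Of 11 other receptors and co-receptors, 10 were tested, 6 were above 0 at 1 day and 8 at 5 days (median log2 0.045 at both). Acvr1, which encodes ALK2, a type I receptor of BMPs that activin A can also bind, was at 34.0 ± 0.970 and 30.4 ± 2.27 CPM at 1 day and at 35.2 ± 1.41 and 29.9 ± 1.40 CPM at 5 days. Its groups did not overlap at 5 days, with a log2 difference of -0.24 (SE 0.06) that missed the threshold in edgeR (adjusted p = 0.127) and passed in DESeq2 (adjusted p = 0.0238). At 1 day the log2 difference was -0.16 (SE 0.06, edgeR adjusted p = 0.507). Tgfbr1, the type I TGF-beta receptor gene, differed by 0.09 and -0.01 (SE 0.11), and Bambi, a pseudoreceptor that dampens the pathway, by 0.04 and 0.03 (SE 0.15).

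Of 23 other SMADs and SMAD regulators, 22 were tested, 13 were above 0 at 1 day (median log2 0.024) and 16 at 5 days (0.029). Smad4, the shared partner of SMAD2 and SMAD3, was at 35.2 ± 2.44 and 36.1 ± 3.61 CPM at 1 day and at 35.2 ± 1.5 and 35.8 ± 3.84 CPM at 5 days. Smad7, the inhibitory SMAD that the pathway itself induces, differed by 0.04 and 0.15 (SE 0.11), and the SMAD repressor gene Skil by -0.10 and 0.00 (SE 0.09). Of 14 transcripts known to be induced by SMAD2 and SMAD3, all were tested, 6 were above 0 at 1 day (median log2 -0.037) and 7 at 5 days (0.003). Pmepa1, a feedback inhibitor, was at 45.9 ± 2.72 and 46.0 ± 5.37 CPM at 1 day and at 43.3 ± 3.09 and 41.1 ± 5.37 CPM at 5 days. The summed level of the SMAD-induced transcripts was 663 to 698 CPM in Control_1d and 596 to 705 CPM in Dnmt3a2_1d, and 649 to 683 CPM in Control_5d and 592 to 660 CPM in Dnmt3a2_5d, overlapping at both days with lower medians in Dnmt3a2 (614 against 690 CPM and 617 against 672 CPM). Of these 14 transcripts, Cdkn1a, Cdkn1b and Tsc22d1, named after their values were seen, were lower without overlap at 5 days, against 3.29% of all genes. Tsc22d1 and Cdkn1a had the highest levels of the list (361 and 87.3 CPM over 16 libraries) and weigh most in the sum. Cdkn1a, which encodes the cell cycle inhibitor p21, was at 99.4 ± 8.98 CPM in Control_5d and 69.7 ± 9.60 CPM in Dnmt3a2_5d, a log2 difference of -0.51 (SE 0.25, edgeR adjusted p = 0.659). Cdkn1b was at 42.7 ± 1.03 and 38.8 ± 0.413 CPM (edgeR adjusted p = 0.509), and Tsc22d1 at 368 ± 4.91 and 349 ± 7.10 CPM (edgeR adjusted p = 0.722).

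**Figure D5:**
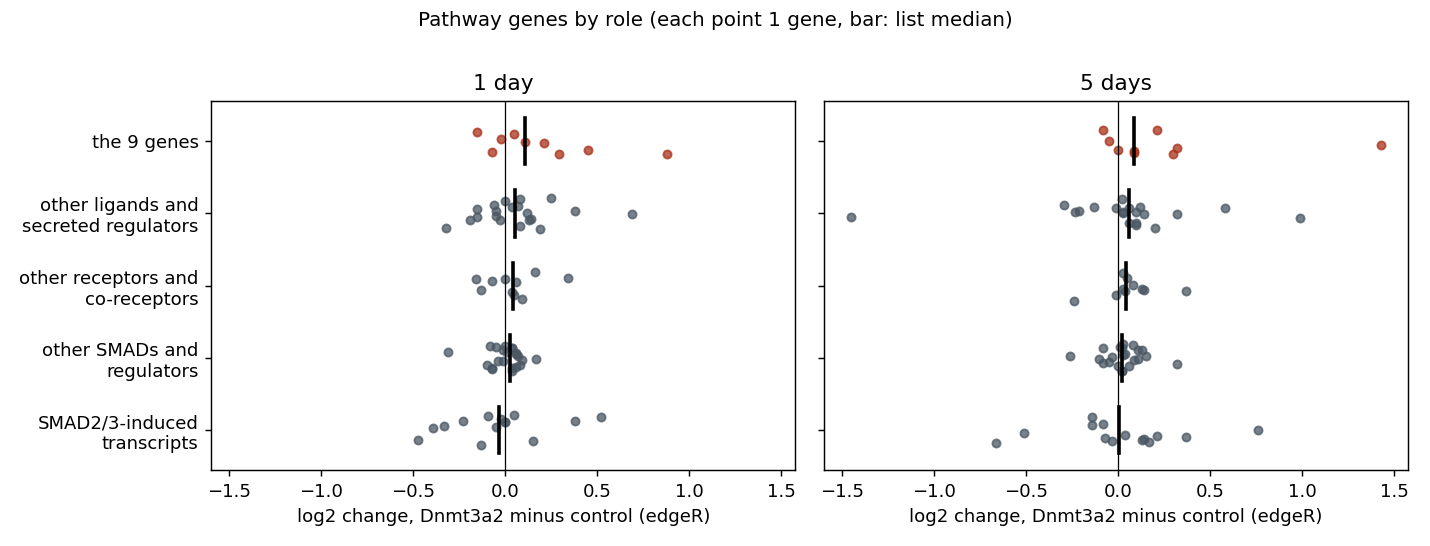
Log2 difference between Dnmt3a2 and control libraries at 1 day (left) and 5 days (right), each point 1 gene, for the 9 genes (red) and the 4 lists of other pathway genes (grey), with bars the list medians. The medians of the 4 lists lie between -0.037 and 0.060, and those of the 9 genes at 0.11 and 0.09. Fst is the red point at 0.88 and at 1.43.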

How the data were processed

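Bulk RNA of 16 dorsal hippocampus libraries was measured, each from 500 ng of total RNA per the labels' protocols, with 2 files per library. The authors deposited expected counts (estimated counts per Ensembl gene, 26.2% of values not whole) for 55385 identifiers and log2 CPM for 16907 genes. Trim Galore 0.6.4, kallisto 0.4.6, edgeR 3.17 and build GRCm38.p6 are named per the submitters' processing notes. No source states their order, the annotation, the strand or the summing to genes. The deposited log2 values were used only as a check: over 16892 shared genes they differed from log2 CPM computed here by a median of 0.000113.

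Here, edgeR 4.0.16 (R 4.3.3) took the rounded counts, kept 16899 genes by filterByExpr and scaled them with TMM. Its robust quasi-likelihood model had 4 group terms over all 16 libraries. A call means a p under 0.05 after Benjamini-Hochberg adjustment. DESeq2 1.42.0 and limma 3.58.1 were alternatives, with other filters, a replicate block and left-out libraries. The fit was tested on simulated data. Names, positions and exon lengths came from GENCODE M21 (55144 identifiers named). Totals were 28.6 to 30.0 M per library. Chi-square per gene was 4.41 or more over 120 library pairs, so no pair held the same library read again. The check cannot tell whether libraries share RNA or an animal.

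The 9 genes, the 4 pathway lists and the 10 marker lists were chosen with earlier results of these data known. Named are the 9 genes, Dnmt3a, pathway genes that edgeR called, 15 pathway genes fixed by name, of which 1 is not reported here, and the 5 genes most like Fst. Genes added after their values were seen are B230303A05Rik, Orc4, Cdkn1a, Cdkn1b, Tsc22d1 and those in the closing section.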

Additional observations from a re-analysis of the deposited data

Results flagged for a closer look

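In 3 of 36 groups of 4 libraries, a single library lay apart from the other 3 of its group, with a gap to its nearest neighbour above the critical value of Dixon's test. Chance flags about 1 in 20 groups. Inhba in Control_1d replicate 2 was at 6.0 CPM, against 5.29 to 5.40 CPM in the other 3, and still below every Dnmt3a2_1d library. Acvr1b in Dnmt3a2_1d replicate 3 was at 109 CPM, against 118 to 119 CPM. Smad2 in Control_5d replicate 3 was at 20.8 CPM, against 25.2 to 25.5 CPM.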

How the results depend on the processing

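Over 28 alternatives the log2 change of Fst at 1 day stayed between 0.66 and 1.03. It passed the threshold in 2 of them, DESeq2 (0.88, adjusted p = 0.0137) and edgeR without a low-count filter (0.88, adjusted p = 0.0275), where 1 of the 9 genes was called at 1 day. Leaving out single libraries gave 0.74 to 1.03 (edgeR adjusted p = 0.110 to 0.299). At 5 days it was 1.05 by limma-trend with a pseudocount of 1, which shrinks low genes by construction, and 1.28 to 1.59 without single libraries. Apart from these values of Fst at 1 and 5 days, 2089 values of single genes were recomputed. Of them, 2087 moved by less than the spread between replicates without a change of call. The other 2, Acvr1 and Igsf1 at 5 days, passed the threshold in DESeq2 (adjusted p = 0.0238 and 0.0446). With the replicate number as a block, Fst was 0.88 at 1 day (edgeR adjusted p = 0.0686), 17 genes were called at 1 day and 65 at 5 days. The labels do not say what the numbers share, and the numbers were not used as pairs because only 10 of 24 same-number pairs correlated above 0.1 in their deviations from group means (-0.102 to 0.450). Of 16 libraries, 10 correlated best with their own number, carried by 3 of the 12 libraries in other groups, which is a hint of pairing from the data, not the design.

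Counts over all genes moved more. At 1 day 15 genes were called, against 59 by DESeq2, 34 without a filter, 7 with only the groups compared, and 6 to 22 without single libraries (6 without Control_1d replicate 2, 7 without Dnmt3a2_1d replicate 3). At 5 days 54 were called, against 143 by DESeq2, 94 with only the groups compared, 105 without the 3 interferon-rich and 90 without the 2 choroid-rich libraries, and 22 to 82 without single libraries. These were 82 without Control_1d replicate 3, 29, 30 and 26 without Control_5d replicates 1, 3 and 4, and 33 and 22 without Dnmt3a2_5d replicates 3 and 4. Between days in Dnmt3a2, 0 genes were called by edgeR (1822 at an unadjusted p under 0.05), 44 by DESeq2, 6 without a filter, and 0 to 1 without single libraries (1 without Dnmt3a2_5d replicate 1). For the difference between days DESeq2 called 1. The cause was not tested. Low counts limit the precision of Fst and Acvr2b.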

Other observations

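Of the 66 other pathway genes tested, Igsf1, named here after its values were seen, was without overlap between virus groups at both days. It encodes a membrane immunoglobulin superfamily protein once described as an inhibin-binding protein. Igsf1 was at 8.02 ± 0.595 CPM in Control_1d and 10.2 ± 0.241 CPM in Dnmt3a2_1d, and at 8.73 ± 0.224 CPM in Control_5d and 11.3 ± 1.67 CPM in Dnmt3a2_5d. Its log2 difference was 0.34 at 1 day (SE 0.10), with an edgeR adjusted p of 0.291. At 5 days it was 0.37 (SE 0.09), with an edgeR adjusted p of 0.125. DESeq2 gave an adjusted p of 0.0446 at 5 days, and over 28 alternatives the adjusted p at 5 days ran from 0.0446 to 0.514.

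Lefty1, a secreted antagonist of nodal, also chosen after its values were seen, was at 13.4 ± 1.41 CPM in Control_5d and 10.9 ± 1.83 CPM in Dnmt3a2_5d, a log2 difference of -0.29 (SE 0.11, edgeR adjusted p = 0.411). Its groups overlapped at 5 days (11.9 to 15.2 and 8.39 to 12.7 CPM). At 1 day its log2 difference was -0.06 (SE 0.10). The 2 pathway genes with DESeq2 calls at 5 days were Acvr1, which was lower, and Igsf1, which was higher.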
